A study of Mus musculus with 42 samples.

Results

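The MHC class II genes examined here were H2-Aa, H2-Ab1, H2-Eb1, H2-DMa, H2-DMb1, Cd74 and Ciita, 7 of the 54353 genes counted in every bulk library of mouse uterine tissue-resident NK cells (trNK). The list was chosen from earlier results of the same libraries and cells, so the values behind that choice, the levels in the sorted subsets and in the cell classes, are given as a description. Model fits of the members in the subsets are printed for their size only, and nothing is read from their calls. All mice were wild-type C57BL/6 and were 8 to 12 weeks old. The 34 bulk RNA-Seq libraries formed 17 groups of 2 in 4 experiments. In the first, trNK sorted as CD45+NK1.1+NKp46+CD49a+CXCR6- came from virgin mice or from gestational day (gd) 6.5 or 8.5. In the second, trNK at gd8.5 were split by the surface proteins CD55 and 4-1BB into low (trNK-V), intermediate (trNK-D) and high (trNK-T) subsets. In the third, trNK-V sorted at gd6.5, per the study's text, were cultured in 10 ng/mL IL-15, and live NK1.1+ cells were recovered from cultures without IL-21, or after 3 days with 20 ng/mL IL-21 alone or with 1 µM Stattic, a STAT3 inhibitor. In the fourth, trNK-V of gd6.5, labelled only as trNK, were cultured in 10 ng/ml IL-15 with or without 20 ng/ml IL-21 and were collected at 0, 6, 24 and 72 h. The IL-15 dose is that of the sample labels, where the protocol text has 15 ng/ml, and the Stattic dose is that of the labels, where the study's methods print millimolar. The sort removed cells bearing lineage proteins such as CD3, CD5 and Gr-1 but used no antibody to macrophage or class II proteins. A single-cell RNA-Seq capture of CD45+NK1.1+NKp46+ cells pooled virgin and gd8.5 uteri. The study told their cells apart by sample tags. The deposited matrix has no record of which cell came from which, so it was treated as 1 sample.

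Class II molecules are pairs of an α and a β chain that present peptides from endosomes to CD4+ T cells. H2-Aa and H2-Ab1 encode the α and β chains of I-A, and H2-Eb1 encodes the β chain of I-E, which is not displayed in C57BL/6 mice because their α chain gene is defective. Cd74, the invariant chain, escorts new class II pairs to endosomes, where the DM heterodimer of H2-DMa and H2-DMb1 exchanges its remnant for peptide. Ciita is the transactivator that joins RFX and NF-Y on class II promoters. Macrophages, dendritic cells and B cells are the usual class II-bearing cells, and mouse NK cells are not usually counted among them.

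The class II chains and DM chains lie in 1 cluster on chromosome 17 of mm10, with H2-DMa at 34135182-34139101 and H2-DMb1 at 34153072-34160230 on the plus strand, H2-Ab1 at 34263209-34269418 on the plus strand, H2-Aa at 34282744-34287827 on the minus strand, and H2-Eb1 at 34305877-34316199 on the plus strand. Ciita lies on chromosome 16 at 10480059-10528418 on the plus strand and shares 25888 bases with Dexi on the opposite strand. Since the strand of counting was not stated, reads of Ciita and Dexi cannot be told apart there. H2-DMb1 has a close copy, H2-DMb2, which reached at most 0.844 RPKM (reads scaled to gene length and library total), and the division of reads between them is uncertain. RefSeq promoters on GRCm38.p6 hold paired class II elements, an X box bound by RFX and a Y box bound by NF-Y, here searched on the gene strand as GNAAC followed 30 to 34 bases later, start to start, by ATTGG. The pair is printed for H2-Aa (chr17:34287861-34287910, minus strand) and H2-Eb1 (chr17:34305770-34305818, plus strand) because these are the 2 members whose promoter lies upstream of the counted gene and holds it, with both elements in capitals.
H2-Aa: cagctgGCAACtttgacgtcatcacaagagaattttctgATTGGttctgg
H2-Eb1: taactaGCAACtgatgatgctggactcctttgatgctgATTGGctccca
H2-DMb1 also held the pair, as did H2-Oa, H2-Ob and H2-Eb2, 3 other class II chains, while the listed promoter of H2-DMb2 did not. The 2 listed starts of H2-DMa, 12350 and 9664 bases upstream of its first counted exon, held none. Of 32851 listed promoters, each 250 bases before to 50 bases after a start, 134 (0.408%) held the pair on the gene strand and 0.855% on either strand. ATTGG or its complement alone was in 37.4% and GNAAC or its complement in 84.8%. The motifs and their spacing were chosen with the sequences in view, and a match is a description of letters. No promoter was listed for H2-Ab1, Cd74 or Ciita.

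Libraries held 11862089 to 66468883 counts. NK cell markers were present in all 34, with Ncr1, encoding NKp46, at 72.1 to 1587 CPM (counts scaled to the library total), Klrb1c, encoding NK1.1, at 283 to 1708 and Eomes, a transcription factor of NK cells, at 29.9 to 282. The common biological coefficient of variation in edgeR was 0.518 in the gestation, 0.587 in the subset, 0.789 in the inhibitor culture and 0.854 in the time course libraries. Of the 16 time course libraries, 3 of the 4 at 72 h had the fewest genes detected, at 10724 and 11665 without IL-21 and 12000 in replicate 2 with IL-21, against 13340 to 15679 in the rest. Genes with at least 10 counts numbered 8919, 8488 and 9588 in these 3 and 11513 to 13034 in the rest. The labels do not say that the 2 libraries of a group came from separate mice or cultures, so p-values measure only the spread between these libraries.

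The 4 libraries of trNK-V and trNK-D held the most class II RNA. The summed level of the 7 genes was 566 to 1239 CPM there and 28.6 to 330 CPM in the other 30 libraries. Cd74 stood at 362 and 227 RPKM in trNK-V, 440 and 216 in trNK-D, and 5.18 and 4.07 in trNK-T. H2-Ab1 was at 198 and 99.6 RPKM in trNK-V, 166 and 82.8 in trNK-D, and 2.96 and 2.01 in trNK-T. H2-Aa was at 98.9 and 24.5 RPKM in trNK-V, 68.5 and 19.0 in trNK-D, and 0.46 and 0.765 in trNK-T. For these genes both trNK-T libraries lay far below all 4 others, while trNK-V and trNK-D overlapped. H2-Eb1 had the same order, at 54.6 and 42.3 RPKM in trNK-V, 51.8 and 27.7 in trNK-D, and 2.24 and 0.57 in trNK-T. For the I-A chains and Cd74 the 2 libraries of trNK-V or of trNK-D differed more from each other than these subsets did in their means.

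The 2 DM chains parted. H2-DMa was at 57.7 and 62.0 RPKM in trNK-V, 29.8 and 27.0 in trNK-D, and 7.40 and 5.96 in trNK-T, so that its 3 groups did not overlap. H2-DMb1 was at 37.1 and 10.3 RPKM in trNK-V, 46.8 and 8.52 in trNK-D, and 3.58 and 5.17 in trNK-T. The high H2-DMb1 values came from replicate 1 of trNK-V and of trNK-D, and replicate 2 of each lay closer to trNK-T than to replicate 1. Ciita was low everywhere, at 0.421 and 0.0224 RPKM in trNK-V, 0.59 and 0.0693 in trNK-D and no read in trNK-T, where 3 counts per library would have been 0.226 CPM on average.

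As fitted differences on the log2 scale (± SE), trNK-T against trNK-V gave -6.47 ± 1.01 for H2-Aa, -5.71 ± 0.52 for H2-Ab1, -4.89 ± 0.65 for H2-Eb1, -5.80 ± 0.44 for Cd74, -2.97 ± 0.23 for H2-DMa and -2.24 ± 0.90 for H2-DMb1. Ciita was at least 9.36-fold lower in trNK-T, but that bound rests on trNK-V replicate 1 with 62 counts, since replicate 2 with 3 counts (0.214 CPM) was itself under the floor and gives no bound. Against trNK-D the values were -5.55 ± 0.52 for H2-Ab1 and -6.05 ± 0.45 for Cd74. In both comparisons the 2 groups did not overlap for any of the 7 members, nor for 60.1% of all genes in trNK-T against trNK-V and 47.9% in trNK-T against trNK-D. Between trNK-D and trNK-V the values ran from -0.96 ± 0.22 for H2-DMa, whose groups did not overlap, to 0.65. These 2 groups did not overlap for 1 of 7 members and for 43% of all genes. In edgeR's quasi-likelihood test, with calls requiring more than a 2-fold change and an adjusted p under 0.05, 5 members were called in trNK-T against trNK-V beside 7.01% of all 13834 genes, 2 in trNK-T against trNK-D beside 0.0795%, and none in trNK-D against trNK-V beside 0.00723%. The list was chosen from these levels, which fixes such counts, so they are no evidence about the members.

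**Figure D1:**
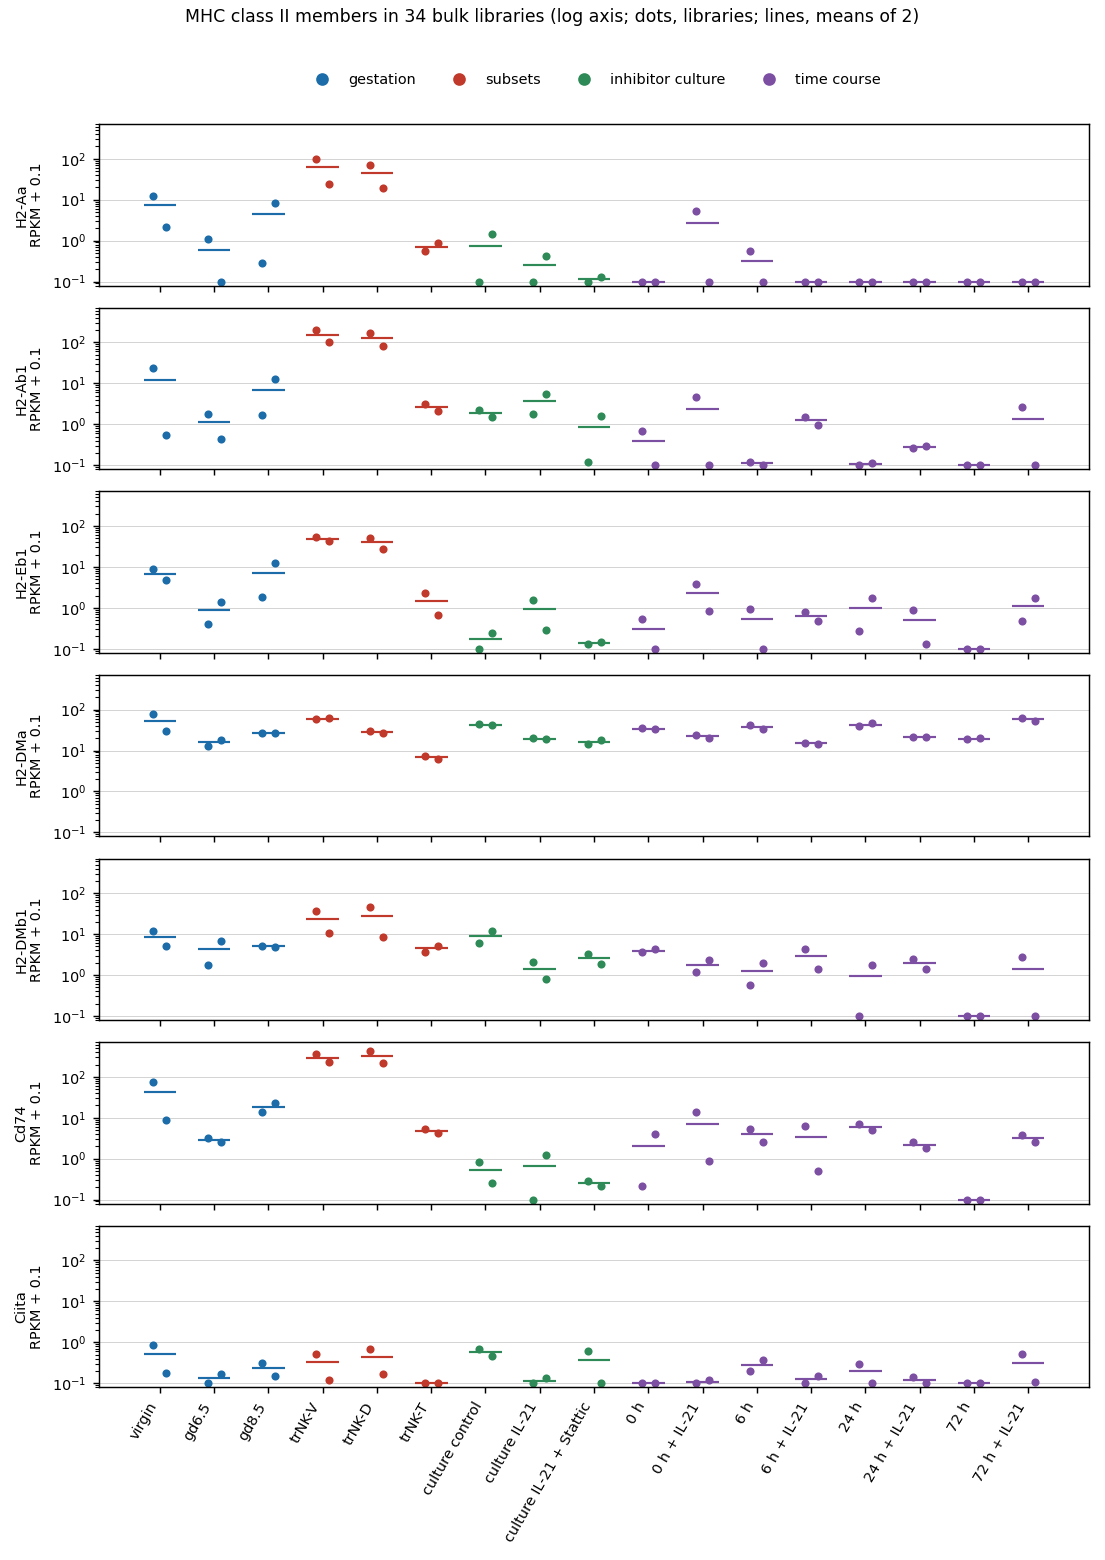
Level of each of the 7 class II genes in RPKM plus 0.1 (log axis) in the 34 bulk libraries, with 1 panel per gene, points for libraries and short lines for the mean of each group of 2. The 4 trNK-V and trNK-D libraries are highest for H2-Aa, H2-Ab1, H2-Eb1 and Cd74, whereas H2-DMa is at 5.96 RPKM or more in all 34 libraries and Ciita stays below 1 RPKM.

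Of the 7 genes only H2-DMa had reads in every library. Over all 34 libraries H2-DMa ranged from 5.96 to 76.4 RPKM with a median of 26.6, and its group order began with trNK-V (59.9 ± 3.03, SD, n = 2), the 72 h culture with IL-21 (57.8 ± 5.68) and virgin trNK (52.8 ± 33.4), which overlapped one another, and ended with trNK-T (6.68 ± 1.02). H2-Aa had no read in 18 of the 34 libraries, 14 of them among the 16 of the time course. H2-Ab1 had none in 7, H2-Eb1 in 5, H2-DMb1 in 4, Cd74 in 3 and Ciita in 11. Ciita never passed 0.759 RPKM, and its highest group was the culture without IL-21 (0.490 ± 0.164). Absence of reads at these depths does not show absence of RNA.

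Markers of class II-bearing cells moved with the subsets. The macrophage list (15 genes) summed to 87.9 and 595 CPM in trNK-V, 424 and 581 in trNK-D and 46.5 and 40.6 in trNK-T, against 0.336 to 93.0 CPM in the 28 libraries of the other experiments. Of its 15 genes, 6 and 1 had no read in trNK-V, 0 and 1 in trNK-D and 4 and 6 in trNK-T. Lyz2, the lysozyme of myeloid cells, was at 25.3 and 354 CPM in trNK-V, 279 and 399 in trNK-D and at most 6.07 in trNK-T, and was most of the sum in trNK-V replicate 2 and both trNK-D libraries. Among defining macrophage genes, the C1q chains C1qa, C1qb and C1qc summed to only 5.83 and 7.34 CPM in trNK-V, 19.8 and 12.9 in trNK-D and 2.32 and 0.59 in trNK-T. Csf1r, the macrophage growth factor receptor, was at 0 and 7.26 CPM in trNK-V, 7.31 and 14.7 in trNK-D and 0 in both trNK-T libraries.

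Dendritic and B cell markers were also uneven. Cd209a, a lectin of monocyte-derived dendritic cells, was at 111 and 0 CPM in trNK-V, 233 and 0 in trNK-D, 0 in trNK-T and at most 0.426 in every other library. The dendritic cell list (9 genes, 4 to 6 of them at 0 in these 4 libraries) summed to 203 to 612 CPM in trNK-V and trNK-D and 26.9 to 308 elsewhere, most of it from Itgax, which NK cells also express. The B cell list (13 genes, 6 to 9 of them at 0) summed to 494 to 11712 CPM in trNK-V and trNK-D and 94.3 to 928 elsewhere. That high value was Igkc, the κ light chain, at 11217.5 CPM in trNK-D replicate 2, which also held Cd79a, a B cell receptor subunit, at 21.4 CPM. Igkc was at 6.48 and 9.76 CPM in trNK-V, 16.2 in trNK-D replicate 1 and 1.33 and 1.26 in trNK-T. The stromal list (6 genes) summed to 344 and 24.4 CPM in trNK-V, 29.2 and 9.76 in trNK-D and 3.52 and 3.29 in trNK-T, with Col1a1, a collagen of fibroblasts, at 111 CPM in trNK-V replicate 1. Ms4a1, which encodes a B cell surface protein, had no read in any of the 34 libraries. In a bulk library, fewer cells of a type and less RNA per cell cannot be told apart.

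The order of the replicates did not match the macrophage list. In both trNK-V and trNK-D, replicate 1 had the lower macrophage sum and the higher H2-Aa, H2-Ab1, H2-Eb1, H2-DMb1, Cd74 and Ciita, and it was the replicate with Cd209a. Without replicate 1 of trNK-V and trNK-D, an alternative chosen after seeing the data, trNK-T against trNK-V gave -5.14 for H2-Aa, -5.13 for H2-Ab1, -4.69 for H2-Eb1, -5.43 for Cd74 and -3.03 for H2-DMa, and -1.05 for H2-DMb1. The part of the Cd209a-bearing cells in the result with all libraries was not tested further.

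**Figure D2:**
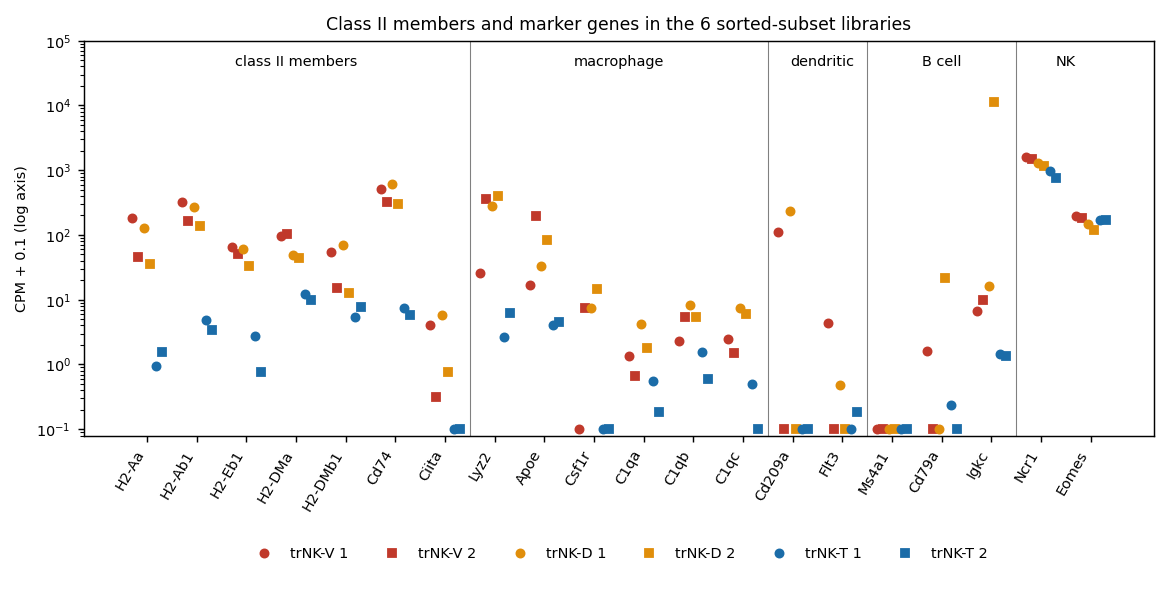
CPM plus 0.1 (log axis) of the class II genes and of macrophage, dendritic cell, B cell and NK cell markers in the 6 subset libraries, each point 1 library. The class II genes and Lyz2 are lower in both trNK-T libraries, Cd209a is found only in replicate 1 of trNK-V and trNK-D, and Igkc peaks at 11217.5 CPM in trNK-D replicate 2.

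Members were also set against marker sums on the differences within groups. In a fit over all 34 libraries with a level for each of the 17 groups and the log2 of the summed macrophage markers as covariate, no member was called in edgeR's quasi-likelihood test, beside 0% of 13670 genes (2246 genes and no member at an unadjusted p below 0.05). The coefficients, in log2 change per doubling of the marker sum, ran from -1.17 ± 1.06 (SE) for Ciita to 0.58 ± 0.78 for H2-DMb1, with Cd74 at -0.22 ± 0.54 and H2-DMa at -0.04 ± 0.09. That sum is a poor measure of macrophages in cultured cells. Cd68 alone made up a median of 94.9% of it in the inhibitor culture and 92.9% in the time course, where 10 to 14 of the 15 genes had no read. In the gestation and subset libraries Cd68 was a median of 39.8% and 19.7% of the sum.

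The sign of the coefficients depended on the markers. With C1qa, C1qb and C1qc alone all 7 were above 0, at 0.56 ± 0.19 for H2-DMa, 0.94 ± 0.94 for Cd74, 1.80 ± 1.72 for H2-Ab1, 1.31 ± 1.18 for H2-Eb1, 0.25 ± 2.102 for H2-Aa, 0.76 ± 1.05 for H2-DMb1 and 2.39 ± 2.11 for Ciita. None was called in edgeR (smallest adjusted p 0.9475, for H2-DMa, which alone of the members had an unadjusted p below 0.05, as did 396 genes). In the 12 gestation and subset libraries alone with Cd68 left out, an alternative chosen after seeing the data, the coefficients were 0.09 ± 0.26 for Cd74, 0.32 ± 0.52 for H2-Ab1, 0.34 ± 0.31 for H2-Eb1, 0.16 ± 0.71 for H2-Aa, 0.09 ± 0.11 for H2-DMa, -0.29 ± 0.30 for H2-DMb1 and -0.89 ± 0.73 for Ciita, with no call and 818 genes at an unadjusted p below 0.05. In the 28 libraries outside the subsets H2-DMb1 was at 3.50 ± 1.06 per doubling of the whole macrophage sum (adjusted p 0.0507 in edgeR), beside 1162 of 13493 genes called, while the other members lay between -0.55 ± 0.76 and 1.00 ± 1.65. Across these fits the direction and size of the coefficients depended on the markers and libraries used, and they do not tell whether members followed macrophage RNA. With the B cell sum as covariate the coefficients lay between -0.27 and 0.36, no member was called beside 0% of genes (367 at an unadjusted p below 0.05, with no member), and every member's adjusted p in edgeR was 1. That sum held Ighm, the µ heavy chain, at 87.4 to 877 CPM in every library, and Ighm gave 684 of the 886 B cell marker UMIs of trNK-like single cells. Without Ighm, Ighd and Igkc the coefficients were 0.02 ± 0.93 for H2-Aa, -0.24 ± 0.52 for H2-Ab1, 0.13 ± 0.45 for H2-Eb1, 0.03 ± 0.08 for H2-DMa, 0.01 ± 0.41 for H2-DMb1, 0.13 ± 0.33 for Cd74 and 1.35 ± 0.88 for Ciita, again with no call and with 244 genes at an unadjusted p below 0.05. In the 28 libraries outside the subsets the whole B cell sum gave 3.65 ± 1.57 for Ciita (adjusted p 0.294 in edgeR, unadjusted p below 0.05), 1.52 ± 2.85 for H2-Aa, 1.01 ± 1.07 for H2-DMb1, 0.93 ± 1.95 for H2-Ab1, 0.23 ± 1.05 for Cd74, -0.06 ± 0.19 for H2-DMa and -0.56 ± 1.52 for H2-Eb1, beside 575 of 13493 genes called. With the replicate as a block over all 34 libraries Ciita was at 1.93 ± 1.24.

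Replicates were ordered within the 6 gestation and subset groups. The library with the higher macrophage sum, with or without Cd68, had the higher Cd74 in 3 of 6 groups, the higher H2-Ab1 in 3, the higher H2-Eb1 and H2-DMa in 4 each, and the higher H2-Aa, H2-DMb1 and Ciita in 2 each. Over all 17 groups, ties left aside, the library with the higher macrophage sum had the higher H2-DMb1 in 12 and the lower in 4, against 9 and 7 for H2-Eb1, 8 and 9 for H2-DMa, 8 and 8 for Cd74, 7 and 8 for Ciita, 6 and 10 for H2-Ab1 and 3 and 8 for H2-Aa. For H2-DMb1 the counts were 10 and 0 in the cultures, where Cd68 was most of the sum, and 2 and 4 in the gestation and subset groups. Without Cd68 the culture counts were 7 and 3 for H2-DMb1, and those of H2-DMa went from 4 and 7 to 1 and 10. For the dendritic cell sum the counts over all 17 groups were 12 and 3 for Ciita, 10 and 6 for Cd74 and for H2-DMb1, 9 and 8 for H2-DMa, 7 and 9 for H2-Eb1, 6 and 10 for H2-Ab1 and 5 and 6 for H2-Aa. For the stromal sum they were 11 and 2 for H2-Ab1, 9 and 4 for H2-Eb1, 9 and 5 for H2-DMa, 8 and 5 for Cd74, 6 and 3 for H2-Aa, 6 and 6 for Ciita and 5 and 8 for H2-DMb1. For the B cell sum they were 10 and 5 for Ciita, 8 and 8 for Cd74 and H2-DMb1 and 8 and 9 for H2-DMa. H2-Eb1 had 7 and 9 there, H2-Ab1 6 and 10 and H2-Aa 4 and 7. For the neutrophil and monocyte sum they were 10 and 5 for Ciita, 10 and 7 for H2-DMa and 8 and 8 for H2-Eb1. Cd74, H2-Ab1 and H2-DMb1 had 7 and 9 there and H2-Aa 5 and 6. These orders are given without a test, and none of these sums went with all members in the same direction.

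Gestation was compared to ask how class II RNA differed in whole trNK before and during decidualization. Cd74 was at 76.5 RPKM in 1 virgin library and 8.93 in the other, 3.11 and 2.41 in the gd6.5 libraries, and 13.5 and 23.4 in the gd8.5 libraries. H2-DMa was at 76.4 and 29.2 RPKM in virgin, 12.97 and 18.3 in gd6.5, and 27.0 and 26.2 in gd8.5 libraries. H2-Ab1 was at 24.0 and 0.437 RPKM in virgin, 1.66 and 0.347 in gd6.5, and 1.60 and 12.3 in gd8.5 libraries. For Cd74 and H2-DMa both gd6.5 libraries lay below all libraries of the other groups, but the 2 virgin libraries differed from each other by more than virgin and gd8.5 did. The virgin library with the high values, replicate 1, listed 55573 genes, where every other bulk library listed 54446. It also had the fewest genes detected in the gestation libraries, at 14879. The part of these differences in its levels was not tested. H2-Eb1 was at 8.58 and 4.64, 0.297 and 1.26, and 1.76 and 12.7 RPKM in the 3 groups, and H2-Aa at 12.2 and 2.05, 0.984 and 0, and 0.19 and 8.42. The macrophage list summed to 50.6 and 47.0 CPM in virgin, 23.7 and 28.2 in gd6.5, and 25.1 and 53.5 in gd8.5 libraries, with 4 to 8 of its 15 genes at 0. The sum was lower at gd6.5 than in virgin libraries and higher in the gd8.5 library with more Cd74, but the other gd8.5 library lay within the gd6.5 range, and the sums of the virgin libraries were close to each other where Cd74 was not. Cd68 made up 24.7 to 80.3% of the sum in the gestation libraries. Single markers were less even. In the virgin libraries Apoe was at 20.3 and 1.87 CPM and C1q at 7.72 and 2.09, in the order of Cd74, while Lyz2 was at 4.62 and 4.84. The B cell list genes Igkc, at 19.6 and 0.275 CPM, and Ighm, at 877 and 423, were in that order too. In the gd8.5 libraries Apoe was at 1.55 and 14.8 CPM, C1q at 1.72 and 2.19 and Lyz2 at 0.119 and 4.69, again in the order of Cd74. There Igkc was at 0 in both and Ighm, at 426 and 352 CPM, had the opposite order. The gd8.5 library with more Cd74 also held erythrocyte markers at 666 CPM, against 0.178 in the other. The part of these cells in the differences was not tested.

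No difference in gestation passed the test. At gd6.5 against virgin all 7 members were lower in the fit, by -1.05 to -3.93 on the log2 scale (median -3.54, all genes -0.02), with Cd74 at -3.93 ± 0.93 and H2-DMa at -1.77 ± 0.42, both at an adjusted p of 0.118 in edgeR. No member was called beside 0.0378% of 13243 genes, and 3 of 7 members and 2357 genes had an unadjusted p below 0.05. The groups did not overlap for 5 of 7 members and for 48% of all genes. Between gd8.5 and gd6.5 all 7 values were above 0, at 0.30 to 3.27, with Cd74 at 2.77 ± 0.89 (adjusted p 0.303 in edgeR), and no member was called beside 0% of genes, with 2 of 7 members and 1598 genes at an unadjusted p below 0.05. These comparisons share their gd6.5 libraries. At gd8.5 against virgin the members ran from -1.61 to 0.15, none was called beside 0.0378% of genes, and the smallest adjusted p in edgeR was 0.500, with 1333 genes and no member at an unadjusted p below 0.05. Over the 3 comparisons DESeq2's Wald test called members 5 times and voom never, and 4 calls appeared in edgeR without virgin replicate 2, while calls over all genes went from 10 to 1436 with DESeq2, 170 with voom and 1702 without that library.

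In the inhibitor culture only H2-Ab1, H2-DMa, H2-DMb1 and Ciita passed the filter of a mean of 10 counts. H2-DMa was at 45.3 and 41.0 RPKM without IL-21, 20.4 and 18.8 with IL-21 and 14.8 and 17.6 with IL-21 and Stattic. Both libraries without IL-21 were above the 4 with it, and the inhibitor group did not return to the control level. The share of all genes without overlap was not counted in this culture. It was 30 to 60.1% in comparisons of the other experiments, so nothing is read from this order. The fitted difference was -0.89 ± 0.39 (log2 ± SE) for IL-21 against control and -1.07 ± 0.39 for IL-21 with Stattic against control, with adjusted p-values of 1 and 0.302 in edgeR, and Stattic against IL-21 alone gave -0.18 ± 0.39. H2-DMb1 was at 6.08 and 11.9, 1.99 and 0.699, and 3.17 and 1.72 RPKM in the same order of groups, with IL-21 against control at -2.43 ± 1.07 (adjusted p 1 in edgeR). Ciita was at 0.606 and 0.374, 0 and 0.0311, and 0.522 and 0 RPKM, and Cd74 did not pass 1.105 RPKM in any of the 6 libraries. None of the 4 was called in IL-21 against control beside 0.00757% of 13205 genes, in IL-21 with Stattic against IL-21 beside 0.0984%, or in IL-21 with Stattic against control beside 0.303%, and DESeq2 and voom called none either. At an unadjusted p below 0.05 there were 616, 1593 and 1844 genes in these comparisons and 0, 0 and 1 members, the 1 being H2-DMa with IL-21 and Stattic against control.

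In the time course H2-DMa was lower in the IL-21 arm from 0 h, before any exposure time, to 24 h and higher at 72 h. Without IL-21 it was at 34.6 and 33.2 RPKM at 0 h, 41.7 and 34.1 at 6 h, 38.6 and 47.4 at 24 h and 18.7 and 19.9 at 72 h. In the IL-21 arm it was at 24.0 and 20.6 RPKM at 0 h, 14.9 and 14.7 at 6 h, 20.8 and 21.4 at 24 h and 61.8 and 53.7 at 72 h. The 2 arms did not overlap at any time, as was the case for 30% of all genes at 0 h, 44.3% at 6 h, 49.9% at 24 h and 31.5% at 72 h, and they changed order between 24 and 72 h. The IL-21 effect was -1.36 ± 0.31 (log2 ± SE) at 6 h (adjusted p 0.202 in edgeR's quasi-likelihood test), -1.14 ± 0.30 at 24 h (adjusted p 0.409) and 1.48 ± 0.31 at 72 h (adjusted p 0.0159), and the arms already differed by -0.61 ± 0.30 at 0 h (adjusted p 1). The 72 h effect less the 6 h effect was 2.84 ± 0.43 (adjusted p 0.00451 in edgeR), against a median of 0.25 over all genes. H2-DMa was the only member called for the IL-21 effect at 72 h beside 6.07% of 13074 genes, and the only one for this difference of effects beside 2.94%. A count of 1 in 7 members is too small to set against these shares, so nothing is read from it about the members as a set. No member was called at 0 h beside 0% of genes, at 6 h beside 0.115% or at 24 h beside 0.00765%, and an unadjusted p below 0.05 was reached by 0, 1 and 1 members and by 283, 660 and 762 genes. DESeq2 called H2-DMa at 6 h (adjusted p 5.16e-04) and 24 h (adjusted p 0.00756) as well. Over the time course comparisons it made 5345 calls over all genes and 10 of members, where edgeR made 2012 and 2. Its share of genes at each time was not counted, so its early calls are not read as added evidence. The 72 h call held without any 1 library but was lost in edgeR with no filter (adjusted p 0.0785) and when the 72 h groups were fitted alone (adjusted p 0.833).

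Both 72 h libraries without IL-21 lacked most class II reads, and they were, with replicate 2 of the 72 h IL-21 group, the 3 with the fewest genes detected. There Cd74 had 0 counts in each, against 193 and 98 in the IL-21 arm and 294 and 300 at 24 h, or at least 49.2-fold and 94.3-fold lower when 0 is taken as 3 counts per library. Cd74 was called lower at 72 h than at 24 h without IL-21 (adjusted p 0.0336 in edgeR), while its IL-21 effect at 72 h had an adjusted p of 0.0566. H2-Aa, H2-Ab1, H2-Eb1 and H2-DMb1 also had 0 counts in both 72 h libraries without IL-21, and H2-Ab1, H2-Eb1 and H2-DMb1 were at least 23.2-fold, 13.8-fold and 22.2-fold higher with IL-21, with adjusted p-values of 0.250, 0.208 and 0.154 in edgeR. In the IL-21 arm H2-Ab1 and H2-DMb1 had reads in replicate 1 but 0 in replicate 2, so that their bounds rest on 1 library. Cd74 was the only member called in 72 h against 24 h, beside 9.18% of genes, of which 1048 were lower and 152 higher. Nothing is read from this 1 call about the members as a set. No member was called in 6 h against 0 h beside 0% of genes (270 genes and 1 member at an unadjusted p below 0.05) or in 24 h against 6 h beside 0.0153% (500 genes and 0 members). The Cd74 call was lost when either library of the 6 h, 24 h or 72 h groups without IL-21 or of the 24 h group with IL-21 was left out (adjusted p 0.0522 to 0.101 in edgeR). How far the low number of detected genes, found in 1 of the 2 IL-21 libraries as well, entered into the 72 h results was not tested.

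**Figure D3:**
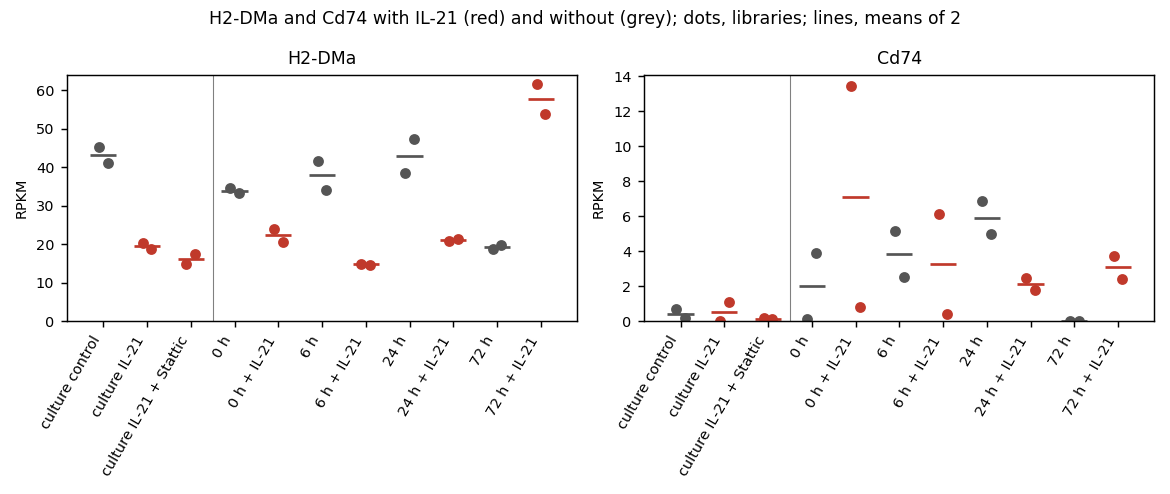
H2-DMa and Cd74 in RPKM in the inhibitor culture and over the time course, each point 1 library, with IL-21 in red. H2-DMa in the IL-21 arm lies below the other arm at 0 h already, and at 6 and 24 h, and above it at 72 h (61.8 and 53.7 against 18.7 and 19.9 RPKM). Cd74 is 0 in both 72 h libraries without IL-21.

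Other genes of the pathway were followed as a list. Of 20 genes beyond the members (further class II chains, RFX and NF-Y subunits, endosomal proteases, the thiol reductase Ifi30, MARCH ligases and B7 molecules), 15 were tested in the subsets. In trNK-T against trNK-V 2 of the 15 were called, beside 7.01% of all genes, and in trNK-T against trNK-D 1 of 15, beside 0.0795%. Ctss, the protease that trims the invariant chain, was called lower in trNK-T than in trNK-V (-1.79 ± 0.24, 60.1 and 56.2 against 14.2 and 15.3 RPKM) and than in trNK-D (-2.46 ± 0.24). Ifi30, which reduces disulfides of antigens, was called higher in trNK-T than in trNK-V (1.63 ± 0.37, 31.9 and 32.1 against 10.1 and 13.4 RPKM). The list's median was -0.61 for trNK-T against trNK-V. Rfx5, an RFX subunit, was higher with IL-21 at 72 h (1.05 and 1.26 RPKM against 0 in both, adjusted p 0.0385 in edgeR) and lower at 72 h than at 24 h without IL-21 (adjusted p 0.0431). That was 1 of 15 genes in each comparison, beside 6.07% and 9.18% of all genes, shares so near that nothing is read from it about the list. In the other 13 comparisons no gene of this list was called.

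Interferon-γ induces Ciita in many cells, so 7 genes of that input were followed. Ifng (-1.57 ± 0.35), Jak1 (-1.003 ± 0.16) and Irf1 (-1.45 ± 0.22) were called lower in trNK-T than in trNK-V, 3 of the 7 tested beside 7.01% of all genes (491 lower and 479 higher). This list too was chosen with results of these libraries known, so the count is a description. Ifng was also called higher with IL-21 and Stattic than without IL-21 (4.21 ± 0.48, 176 and 305 against 11.97 and 22.1 RPKM, adjusted p 0.0327 in edgeR), 1 of 6 tested beside 0.303% of all genes, while Ciita was at 0.522 and 0 RPKM there. With IL-21 alone Ifng was at 354 and 363 RPKM, and its difference from the control of 4.66 ± 0.49 was not called (adjusted p 0.0737 in edgeR). Ifngr1, Ifngr2 and Jak2 were called in no comparison in which they were tested.

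In the single-cell matrix 4338 of 15175 cells passed the limits of 200 to 2500 unique molecular identifiers (UMIs) and 10% mitochondrial counts, and the clustering left the class II genes out. The upper limit was passed by 8849 cells. The median was 3364 UMIs in all cells and 1607 in those kept, so the classes below hold the shallower cells. The study kept more cells, and the same limits set on genes kept 8907 here. Classes were named from marker genes, with 1754 trNK-like cells (median 1587 UMIs), 844 cNK-like, 307 ILC1-like, 725 macrophage-like (1491) and 231 B cell-like (1604). Another name needed at least 3 raised markers and a mean log2 fold of at least 1. The trNK-like name needed only 3 trNK markers at 100 CPM and no list outside NK cells and ILC1 raised. The trNK list summed to 1933 CPM there, 3291 in cNK-like and 2051 in ILC1-like cells. The ILC1-like cluster was led by Tcrg-C4, Cxcr6, Tcrg-C1 and Tcrg-C2, and its T cell list was at 686 CPM, against 109 in trNK-like cells. Cells with a γδ T cell receptor were not set apart from it. Cd74 summed to 240.4 CPM in trNK-like cells (95% Poisson interval 222 to 260, for counting error only), 13354 (13140 to 13571) in macrophage-like and 11744 in B cell-like cells. The cNK-like (270.5 CPM), ILC1-like (220.4) and T cell-like (353.9) classes were near the trNK-like level, and erythrocyte-like cells, which should lack the gene, had 169.3 (102 to 264). Erythrocyte markers took 648246 CPM of that class, which lowers the CPM of every other gene there, and per cell it held 0.306 Cd74 UMIs (19 in 62 cells) against 0.373 (655 in 1754) in trNK-like cells. H2-Ab1 was at 168.8 CPM in trNK-like cells against 9745 in macrophage-like and 4867 in B cell-like cells, and H2-Aa at 118.9 against 8393 and 5199. The trNK-like levels were thus of the order of those in the other NK and T cell classes and far below both antigen-presenting classes. Among clusters that could not be named, Cd74 was at 9337 CPM in 7 cells led by Apol7c and Fscn1, 3012 CPM in 76 cells led by Ace, and 1101 CPM in 20 cells led by Fcna.

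Shares of cells with a UMI depend on depth. A Cd74 UMI was found in 25.3% of trNK-like cells, 17.7% of erythrocyte-like cells (median 1731 UMIs), 85.1% of macrophage-like and 99.6% of B cell-like cells. After thinning to 500 UMIs the shares were 11.7% (10.2 to 13.3) of trNK-like, 9.14% of cNK-like, 3.23% (0.393 to 11.2) of erythrocyte-like, 76.4% of macrophage-like and 97.8% of B cell-like cells, and the trNK-like and erythrocyte-like intervals overlapped. Thinning keeps the share of erythrocyte markers, which lowers the erythrocyte-like value as well. The 783 trNK-like cells (median 1438 UMIs) without a UMI of any macrophage or B cell marker had 189.9 CPM of Cd74 (165 to 217), and the other 971 (median 1696 UMIs) had 276.3 (251 to 303). Most B cell marker UMIs of trNK-like cells were Ighm, so this split also follows Ighm and depth. Among the 7 trNK-like clusters Cd74 ran from 191.0 CPM in a cluster led by Cox6a2 to 354.0 in a cluster of 218 cells with a median of 730 UMIs led by noncoding RNAs. With no upper limit on UMIs Cd74 was at 80.8 CPM in trNK-like and 9320 in macrophage-like cells.

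**Figure D4:**
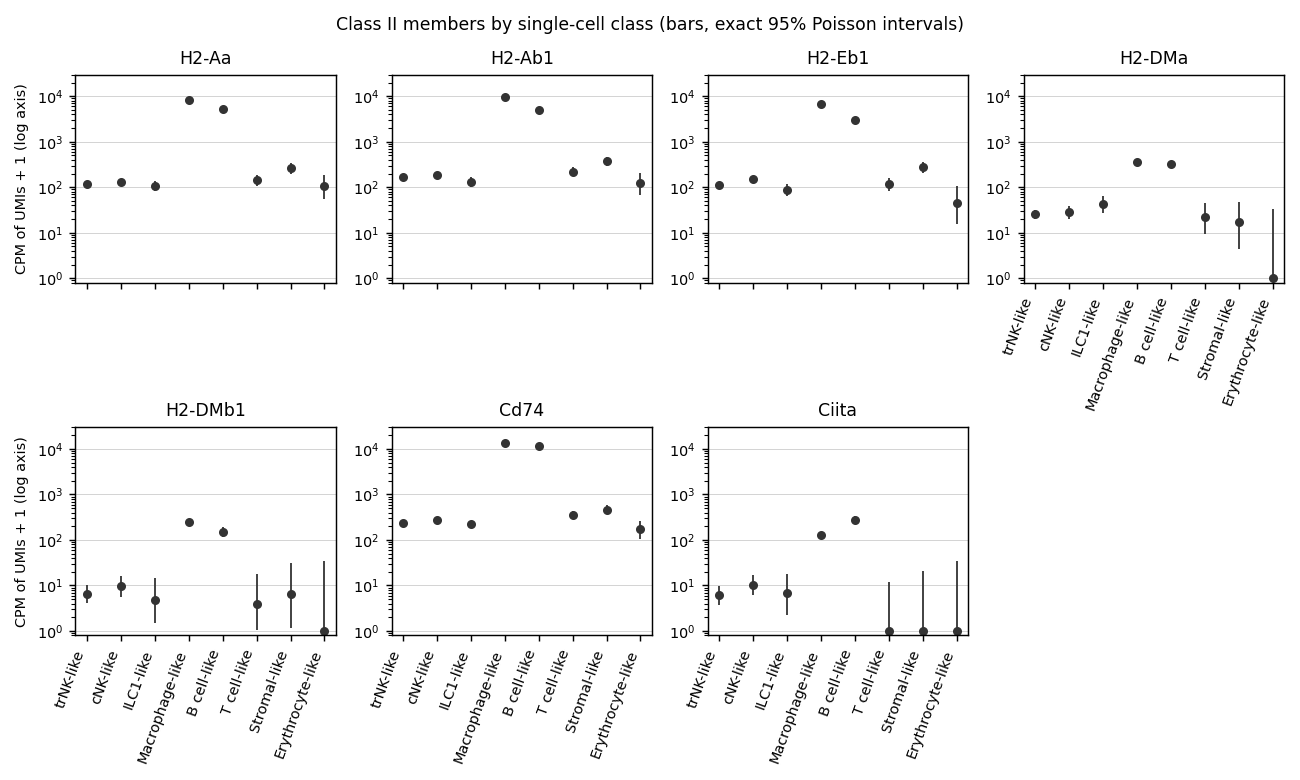
CPM of UMIs plus 1 (log axis) of each class II gene in each single-cell class, with 95% Poisson intervals for counting error. Macrophage-like and B cell-like cells are highest of the named classes for every gene, and the trNK-like level of Cd74 (240.4 CPM) is close to that of cNK-like and ILC1-like cells.

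H2-DMa had a higher share of the macrophage-like level than the class II chains and Cd74. As a share of the macrophage-like level, trNK-like cells held 1.42% for H2-Aa, 1.73% for H2-Ab1, 1.63% for H2-Eb1 and 1.80% for Cd74, and macrophage markers gave similar shares, at 1.68% for C1qa, 1.70% for C1qb, 2.05% for C1qc, 1.63% for Apoe and 1.76% for Aif1. H2-DMb1 was at 2.25% (1.24 to 3.77, from 15 UMIs) and Ciita at 4.09% (2.18 to 7.09, from 14 UMIs). H2-DMa was at 6.79% (5.15 to 8.84, from 66 UMIs), an interval that overlapped that of Ciita but not those of the other members. Against the B cell-like level it was at 7.67% (5.60 to 10.4), which overlapped H2-DMb1 at 3.70% (1.95 to 6.63). Among the macrophage markers Cd68 was also higher, at 4.18% (3.32 to 5.20). It stood at 6.84% in erythrocyte-like, 6.23% in stromal-like, 5.76% in T cell-like and 0.495% in ILC1-like cells. H2-DMa made up 3.59% (2.78 to 4.54) of the 1841 member UMIs of trNK-like cells, 3.46% of those of cNK-like and 7.12% of those of ILC1-like cells, against 0.911% (0.824 to 1.00) in macrophage-like and 1.24% (1.03 to 1.48) in B cell-like cells. Its level was 23.0 CPM in trNK-like cells without a macrophage or B cell marker UMI and 25.1 CPM in the others, a split that also follows Ighm and depth. With no upper limit on UMIs H2-DMa was at 8.25 CPM in trNK-like and 254.9 in macrophage-like cells. With 1 pooled sample these are values of 1 capture, and the part of free RNA in them was not tested.

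**Figure D5:**
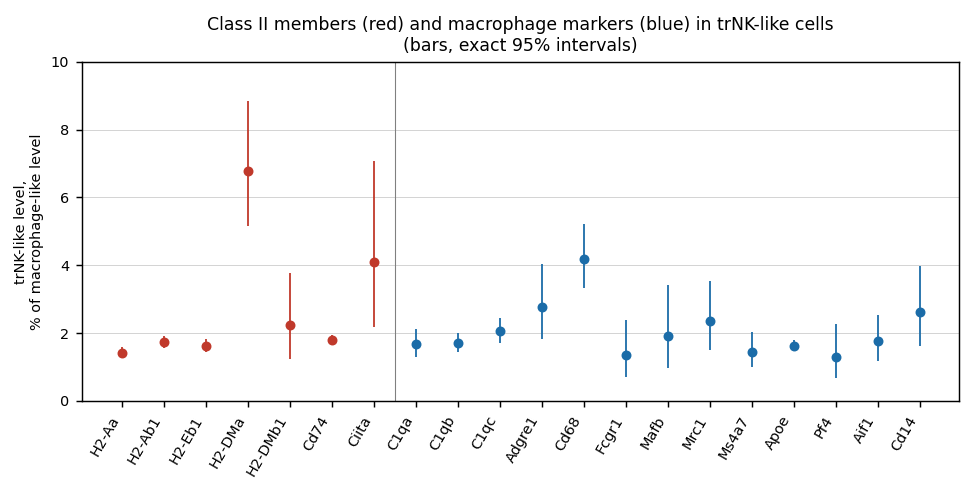
Level in trNK-like cells as a percentage of the level in macrophage-like cells for class II genes (red) and macrophage markers (blue), with 95% intervals for counting error. H2-Aa, H2-Ab1, H2-Eb1 and Cd74 lie at 1.42 to 1.80%, among most macrophage markers, and H2-DMa at 6.79%.

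Likeness to H2-Ab1 was measured by Pearson's r of log2(RPKM + 0.1), centred on the mean of each experiment, over 34 libraries and 10354 genes. The most similar gene was H2-Aa (r = 0.698), with H2-Eb1 (0.616), Cd74 (0.586), H2-DMa (0.452) and H2-DMb1 (0.401) at ranks 11, 21, 150 and 338. Outside the members the closest were Adora2a (0.665), an adenosine receptor, Gm45778 (0.664), Tesc (0.661), Apol7e (0.633), Adgrg5 (0.630), Klrc1 (0.627), which encodes the inhibitory NK receptor NKG2A, Cd3d (0.625), Ccnd2 (0.623), Grap2 (0.622) and Gm26202 (0.609). Klrc1 was at 185 and 210 RPKM in trNK-V, 70.5 and 69.8 in trNK-D and 16.1 and 12.9 in trNK-T. Unlike H2-Ab1, which overlapped between trNK-V and trNK-D, Klrc1 stepped down at each subset. The libraries share their subset structure, so these values are a description of 34 points in 17 groups.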

How the data were processed

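Bulk libraries were made with SMART-Seq HT (gestation and subsets) or a Vazyme full-length kit (time course). Reads were aligned with HISAT2 2.1.0 to mm10 and counted with featureCounts, per the labels' processing notes (the study's methods name RSEM, and the values are whole numbers), and the authors deposited raw counts per gene with no normalization. The deposited single-cell matrix held whole UMI counts of 1 BD Rhapsody capture. The ATAC-Seq samples were not analysed here. RPKM was computed from the deposited counts, library totals and the gene lengths of the files, and levels set side by side across experiments come from different kits. Genes with a mean of at least 10 counts in an experiment were fitted with edgeR 4.0.16 (TMM, quasi-likelihood test, all groups of the experiment in 1 fit, R 4.3.3) with Benjamini-Hochberg adjustment over all genes, and calls needed an adjusted p under 0.05 with more than a 2-fold change. Covariate fits used a level per group, a pseudocount of 1 on the marker sum and no fold limit. Alternatives were DESeq2 1.42.0, limma 3.58.1 with voom, other filters and scaling, a replicate block and leaving out each library. Cells were clustered with scanpy 1.11.5 on 20 components of 2000 variable genes (Leiden 0.8), and Scrublet marked 0 of 15175 cells, so no doublet was removed. The fitting code was tested on simulated data. The named genes were the 7 members, 20 further pathway genes, 7 interferon-γ genes, the marker lists and the 10 genes outside the members most like H2-Ab1 by Pearson's r among genes with a mean of at least 1 RPKM. Some list genes are not reported here by name. The members and lists were chosen with earlier results of these data known.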

Additional observations from a re-analysis of the deposited data

Results flagged for a closer look

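The IL-21 effect on H2-DMa differed between 6 h and 72 h of the time course by an interaction term of 2.84 ± 0.43 on the log2 scale (adjusted p 0.00451 in edgeR). It was 1 of 7 members called, beside 2.94% of genes. The arms already differed at 0 h, with H2-DMa at 24.0 and 20.6 RPKM in the IL-21 arm against 34.6 and 33.2. H2-DMa was also lower with IL-21 in both libraries at 24 h, by a difference of mean RPKM of -21.9, and in both libraries of the inhibitor culture, by -23.6 RPKM, against 38.5 RPKM higher in both at 72 h, and these 2 differences in direction were not tested. Cd74 was lower with IL-21 in both libraries at 24 h, by -3.80 RPKM, and higher in both at 72 h, and Ciita was lower with IL-21 in both libraries of the inhibitor culture, by -0.474 RPKM, and higher at 72 h, where the counts were 145 and 2 with IL-21 against 0 and 1 without it, so that replicate 2 rests on 2 counts. Neither difference was tested. The arms did not overlap for 49.9% of all genes at 24 h and 31.5% at 72 h, and this share was not counted in the inhibitor culture.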

How the results depend on the processing

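Depth limited the low genes, with H2-Aa, H2-Eb1 and Cd74 under the filter in the inhibitor culture. Calls of members over all comparisons of an experiment, the difference of IL-21 effects left out, were 0 in gestation, against 5 with DESeq2's Wald test, 9 with no filter and 0 to 4 when 1 library was left out, while calls over all genes were 10, 1436, 1873 and 0 to 1702. In the subsets 7 calls became 13 with DESeq2, 4 with voom, 14 with no filter and 0 to 6 with 1 library left out, with 3 without trNK-V replicate 2 or trNK-T replicate 1 and 0 without trNK-T replicate 2, and 8 without replicate 1 of trNK-V and of trNK-D. Over all genes the 982 calls became 2939 with DESeq2, 810 with voom, 3080 with no filter, 58, 96 and 5 without trNK-V replicate 2, trNK-T replicate 1 or trNK-T replicate 2, and 1913 without both replicates 1. The 2 calls of the time course became 10 with DESeq2, 1 with voom, 4 with no filter, 0 when the 2 groups compared were fitted alone and 1 to 3 with 1 library left out, while the 2012 calls over all genes became 5345, 2009, 3511 and 159 in the first 4 of these. The cause was not tested. The culture and both covariate fits gave 0 calls under every alternative. The labels do not say whether libraries of the same number share a preparation, replicate 1 held the Cd209a of both trNK-V and trNK-D, and the deviations of same-numbered libraries correlated at -0.107 to 0.195. With the replicate as a block the calls were 0 in gestation, 7 in the subsets, 0 in the culture, 2 in the time course and 0 in the covariate fits. Over all genes they were 0 in gestation, 887 in the subsets, 0 in the culture and 1664 in the time course. The covariate fits with this block called 1 gene with the macrophage and 0 with the B cell markers. Of 1918 bulk values of single members, 1832 stayed on their side of the threshold, 35 lost a call, 51 gained one and 0 called values reversed. A value called in neither fit counts as staying, so the 1832 do not measure how stable the calls were. In single cells, for members other than Cd74, 47 of 96 values stayed within the counting interval of the main setting and 49 moved out of it. The coefficients of members on the macrophage markers, none called, changed sign for 6 of 7 with the C1q genes alone. Cd74 in trNK-like cells was 113.4 CPM with the limits set on genes, 80.8 with no upper limit, 292.1 with 3000 variable genes, 296.6 thinned to 500 UMIs and 189.9 without marker UMIs. In macrophage-like cells these were 14358, 9320, 14441 and 13011 CPM, with 12959 at a Leiden resolution of 0.4, and in B cell-like cells the first 2 were 10141 and 8027. The alternative without marked doublets was not run because none was marked.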
